A study of Mus musculus with 2 samples.

Results

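Droplet barcodes that carried both T cell and macrophage transcripts are described here, from tumours of engrafted MC38 cells (a colorectal cancer line of the mouse). The barcodes were chosen by their own counts of 6 genes. A barcode was taken if it had at least 1000 unique molecular identifiers (UMIs, counted RNA molecules), at least 40 UMIs of C1qa, C1qb and C1qc together per 10000 of its UMIs, and at least 3 UMIs of Cd3e, Cd3d and Cd3g together. There were 482 such barcodes of 11246, with 247 in the TMEM16F KO library (KO in short) and 235 in the vector control library (vector), and they are called double-positive. Levels of the 6 genes that chose them are a description and support nothing further: the median C1q level was 94.0 (KO) and 79.1 (vector) UMIs per 10000, and the median Cd3 count 15 (KO) and 8 (vector) UMIs. The pan-T genes used to measure T cell RNA are 16 other genes (such as Trac, Trbc2, Lck and Thy1), and the core macrophage genes are 15 others (such as Lyz2, Apoe, Cd68 and Csf1r).

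The TMEM16F KO library came from untreated mice engrafted with MC38 cells lacking TMEM16F, and the vector control library from untreated mice engrafted with MC38 cells that carried the vector. TMEM16F is a calcium-activated phospholipid scramblase encoded by Ano6. Both libraries were made from tumour tissue at 21 days with 10x Genomics 3′ droplet chemistry, and the series text speaks of tumour-infiltrating lymphocytes. Per the series text the engrafted cancer cells were the edited ones, not the host's immune cells described here, although it also speaks once of KO mice. The sources used here do not give the strain, age or number of mice, or whether the KO line was 1 clone. With 1 library per genotype there is no replicate and no test, so genotype, tumour and cell preparation cannot be told apart. The intervals printed are at 95% and cover counting error alone.

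C1q is the recognition molecule that starts the classical complement pathway, and tissue and tumour macrophages are a main source of its chains. CD3 is the group of signalling chains that couple the T cell receptor to the inside of the cell. A droplet barcode can hold both when cells of each kind enter 1 droplet or stay attached to each other, when a phagocyte holds material of another cell, or when RNA from broken cells is carried along. C1qa, C1qb and C1qc lie side by side on chromosome 4 (136880129 to 136898803, GRCm38), and Cd3e, Cd3d and Cd3g lie side by side on chromosome 9 (44969572 to 45009627). Depth and marker levels, which bear on these cases, are given below. The cases cannot be told apart barcode by barcode, and the part of each was not tested.

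The KO library held 5993 barcodes with 49777630 UMIs and the vector library 5253 barcodes with 46338994 UMIs, of which 5655 (KO) and 4770 (vector) had at least 1000 UMIs. The series text counts 10782 cells, against 11246 barcodes in the files. The libraries shared 10 barcode sequences, 1 of them double-positive in the KO library and 0 in the vector library. Ano6 gave 121 UMIs in KO and 87 UMIs in vector double-positive barcodes, a ratio of 1.11 (0.833 to 1.48) per total UMIs. If these are host cells, as the series text has it, the level checks neither the knockout nor the labels.

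Double-positive barcodes were 4.37% (3.85 to 4.93) of KO barcodes with at least 1000 UMIs and 4.93% (4.33 to 5.58) of vector ones, a ratio of 0.887 (0.739 to 1.07). Their parent populations differed in size. C1q-high barcodes were 33.3% of the KO and 43.1% of the vector library, and barcodes with at least 3 Cd3 UMIs were 35.8% of the KO and 30.7% of the vector library. From the macrophage side, 13.1% (11.6 to 14.7) of C1q-high barcodes in KO tumours and 11.4% (10.1 to 12.9) in vector tumours were double-positive, a ratio of 1.15 (0.955 to 1.38). From the T cell side, 12.2% (10.8 to 13.7) of Cd3 barcodes in KO tumours and 16.0% (14.2 to 18.0) in vector tumours were double-positive, a ratio of 0.761 (0.634 to 0.914). The denominator thus set on which side of 1 the ratio fell.

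Most C1q-high barcodes had no Cd3 UMI. In the KO library 1133 had 0, 410 had 1, 94 had 2 and 35 had 3, and in the vector library 1280 had 0, 430 had 1, 110 had 2 and 42 had 3. From 4 to 14 Cd3 UMIs each value held 4 to 13 KO and 3 to 25 vector barcodes, and 128 KO and 66 vector barcodes had 15 or more. Just inside the Cd3 threshold, barcodes with 3 Cd3 UMIs held 4.31 (KO) and 3.12 (vector) pan-T UMIs each, and just outside it, those with 2 held 2.22 (KO) and 1.77 (vector). At the C1q threshold, 31 KO and 33 vector barcodes had 40 to 50 C1q UMIs per 10000 and held 161 (KO) and 120 (vector) core macrophage UMIs each, while 37 KO and 36 vector Cd3 barcodes with 30 to 40 held 131 (KO) and 130 (vector). Neither threshold fell in a gap.

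**Figure D1:**
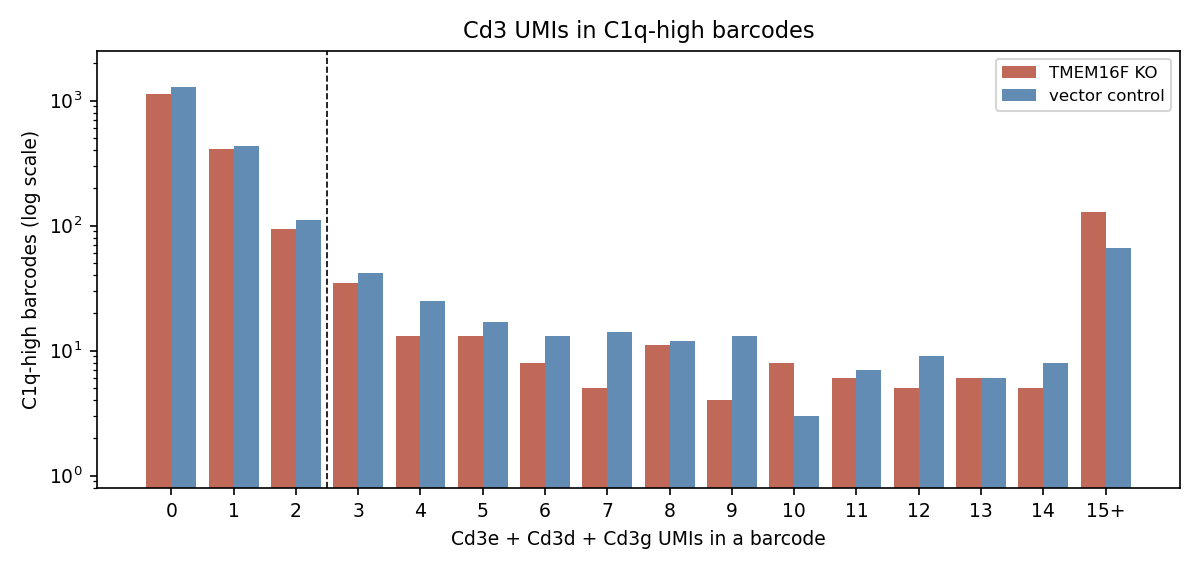
Number of C1q-high barcodes (log scale) by their number of Cd3e, Cd3d and Cd3g UMIs, in the TMEM16F KO (red) and vector control (blue) library, with double-positive barcodes right of the dashed line. At 15 or more Cd3 UMIs the TMEM16F KO library has 128 barcodes and the vector control library 66.

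Double-positive barcodes are read against 2 sets. C1q-only barcodes passed the C1q and depth limits with 0 Cd3 UMIs (1133 KO, 1280 vector). T-only barcodes had at least 3 Cd3 UMIs, at least 1000 UMIs and under 10 C1q UMIs per 10000 (1390 KO, 1062 vector). Double-positive barcodes were also split by Cd3 UMIs into 3 to 4, 5 to 14 and 15 or more, limits set after the values had been seen.

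The double-positive barcodes were deep. Their median was 14825 UMIs (13294 to 16710, lowest 2875, highest 80493) in KO tumours and 10323 UMIs (8853 to 14028, lowest 1098, highest 90606) in vector tumours. C1q-only barcodes had medians of 8375 (KO) and 8780 (vector) UMIs, and T-only barcodes 5806 (KO) and 6289 (vector). The double-positive median was 1.77 times that of C1q-only barcodes in KO and 1.18 times in vector tumours. Against the C1q-only and T-only medians added together it was 1.05 in KO and 0.685 in vector tumours. A minimum of raw Cd3 UMIs favours deep barcodes, so part of this follows from the rule. At an equal depth of 2000 UMIs, double-positive barcodes showed medians of 986 (KO) and 972 (vector) genes, C1q-only barcodes 950.5 (KO) and 940 (vector), and T-only barcodes 1007 (KO) and 986 (vector). Without thinning the medians were 3480 (KO) and 2901 (vector) genes in double-positive, 2396 (KO) and 2428.5 (vector) in C1q-only and 2053.5 (KO) and 2085.5 (vector) in T-only barcodes. Thinning left out 0 KO and 9 vector double-positive, 83 KO and 180 vector C1q-only, and 55 KO and 50 vector T-only barcodes.

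Depth varied with the number of Cd3 UMIs, and differently in each library. With 15 or more Cd3 UMIs the medians were 17269 (KO) and 19154.5 (vector) UMIs, 1.22 (KO) and 1.27 (vector) times the added medians. With 5 to 14 Cd3 UMIs they were 10883 (KO) and 7973 (vector) UMIs, 0.767 (KO) and 0.529 (vector) times that sum. With 3 to 4 Cd3 UMIs they were 17118.5 (KO) and 6452 (vector) UMIs, 1.21 (KO) and 0.428 (vector) times that sum. Under 5000 UMIs stood 13 (5.26%) of the KO and 57 (24.3%) of the vector double-positive barcodes, a ratio of 0.217 (0.109 to 0.401). The same limit held 27.0% (KO) and 33.7% (vector) of C1q-only barcodes, a ratio of 0.802 (0.691 to 0.931), and 40.7% (KO) and 38.0% (vector) of T-only barcodes, a ratio of 1.07 (0.943 to 1.22). Counting only double-positive barcodes with at least 5000 UMIs, an alternative added after seeing the data, their share had a ratio of 1.11 (0.909 to 1.36) of KO over vector, on the other side of 1.

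**Figure D2:**
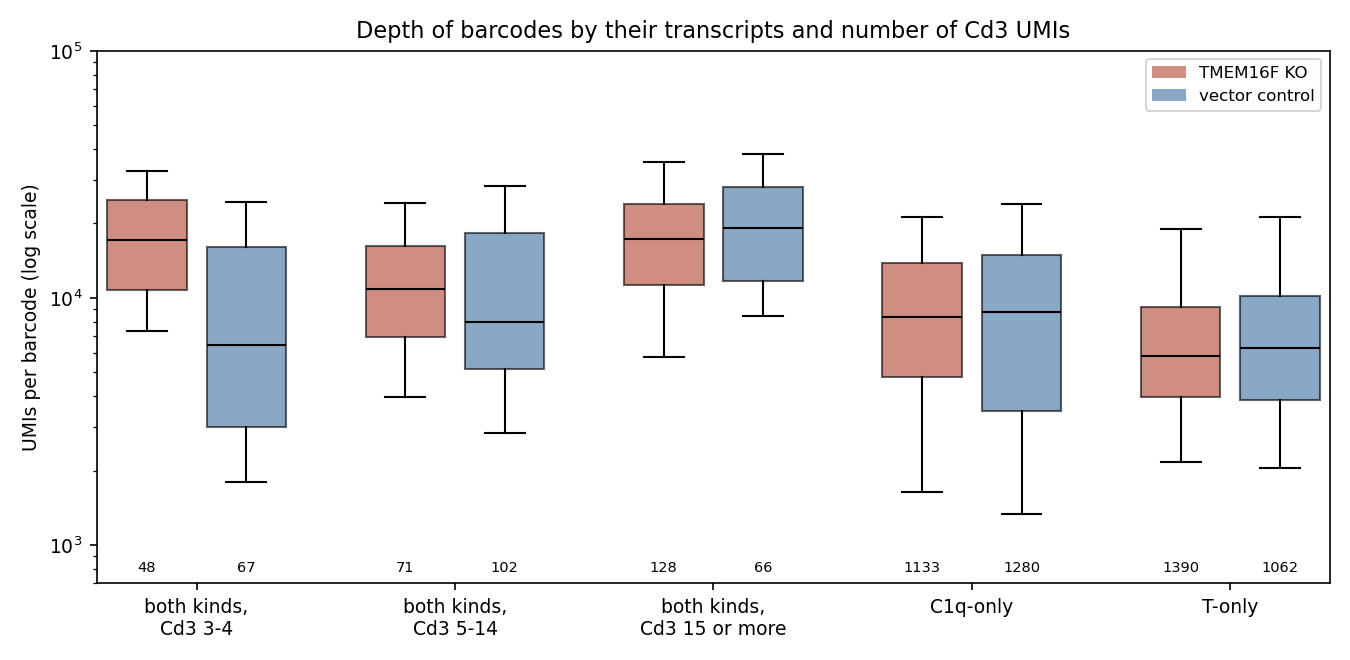
UMIs per barcode (log scale) of double-positive barcodes (both kinds) by Cd3 UMIs, C1q-only and T-only barcodes, in TMEM16F KO (red) and vector control (blue) tumours; boxes span the quartiles, black lines are medians, whiskers reach the 5th and 95th percentiles and the numbers below are barcodes. Double-positive barcodes with 15 or more Cd3 UMIs have medians of 17269 (TMEM16F KO) and 19154.5 (vector control) UMIs, above both C1q-only and T-only barcodes.

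T cell transcripts ranged from a trace to the amount of a T-only barcode. The pan-T genes gave 29.2 UMIs per double-positive barcode in KO and 18.3 in vector tumours. T-only barcodes gave 41.9 (KO) and 40.7 (vector), and C1q-only barcodes 0.618 (KO) and 0.506 (vector). A double-positive barcode thus held 0.699 (0.682 to 0.716) of the T-only amount in KO and 0.450 (0.436 to 0.464) in vector tumours. The fraction was 1.09 (KO) and 0.946 (vector) with 15 or more Cd3 UMIs, 0.383 (KO) and 0.345 (vector) with 5 to 14, and 0.123 (KO) and 0.120 (vector) with 3 to 4. Since Cd3 UMIs set these ranges, T-only barcodes of the same range are the closer measure. Against those the fraction was 0.883 (KO) and 0.784 (vector) with 15 or more, 0.705 (KO) and 0.671 (vector) with 5 to 14, and 0.388 (KO) and 0.332 (vector) with 3 to 4. In each range and library a double-positive barcode held fewer pan-T UMIs than a T-only barcode of that range. Within a range the Cd3 counts were not equal. With 15 or more Cd3 UMIs the median Cd3 count was 31 (KO) and 27 (vector) in double-positive barcodes. In T-only barcodes of that range it was 32 in each library. The part of this gap in the fractions was not tested.

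Macrophage transcripts were present at about the amount of a C1q-only barcode or above it. The core macrophage genes gave 421 UMIs per double-positive barcode in KO and 252 in vector tumours, 1.33 (KO) and 1.11 (vector) times the C1q-only amounts of 316 (KO) and 228 (vector). T-only barcodes held 23.4 (KO) and 12.6 (vector). As a share of each barcode's RNA the genes stood lower, at 0.770 (KO) and 0.784 (vector) of the C1q-only level. With 15 or more Cd3 UMIs the amount was 1.26 (KO) and 1.52 (vector) times that of a C1q-only barcode, and with 3 to 4 it was 1.94 (KO) and 0.869 (vector) times.

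From 0 to 2 Cd3 UMIs depth was higher with more Cd3. C1q-high barcodes with 0, 1 and 2 Cd3 UMIs had medians of 8375, 12007.5 and 16852.5 UMIs in KO tumours and 8780, 12946.5 and 16263.5 UMIs in vector tumours. At 3, 4 and 5 Cd3 UMIs the medians were 15686, 17527 and 8731 UMIs in KO tumours and 9826, 4344 and 4830 UMIs in vector tumours, so depth did not go on rising. Among double-positive barcodes, 11 in KO and 12 in vector tumours had no pan-T UMI at all. At 10000 UMIs or more, the barcodes with 3 to 4 Cd3 UMIs (36 KO, 26 vector) held a mean of 3.33 (KO) and 4.50 (vector) pan-T UMIs. C1q-only barcodes above the same limit held a mean of 0.912 (KO) and 0.750 (vector). The median pan-T counts were 2 (KO) and 1 (vector), against 0 in C1q-only barcodes of each library. Depth was not alike, with medians of 20410 (KO) and 18700 (vector) UMIs against 14848 (KO) and 15475.5 (vector) in C1q-only barcodes.

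Fewer barcodes held a usual amount of both kinds of RNA. Pan-T and core macrophage UMIs both reached the lower quartile of the matching set in 109 KO (44.1%, 37.8 to 50.6) and 68 vector (28.9%, 23.2 to 35.2) double-positive barcodes. These had medians of 19266 (KO) and 21286.5 (vector) UMIs. By definition part of each matching set also lies below its own lower quartile. Barcodes with the full RNA of a barcode from each set would thus not all reach both limits, and these shares are not to be read against 100%. The pan-T amount alone was below its quartile in 101 KO (40.9%) and 132 vector (56.2%) barcodes. The macrophage amount alone was below in 18 KO and 7 vector barcodes. Both were below in 19 KO and 28 vector barcodes, with medians of 4660 (KO) and 2349.5 (vector) UMIs.

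**Figure D3:**
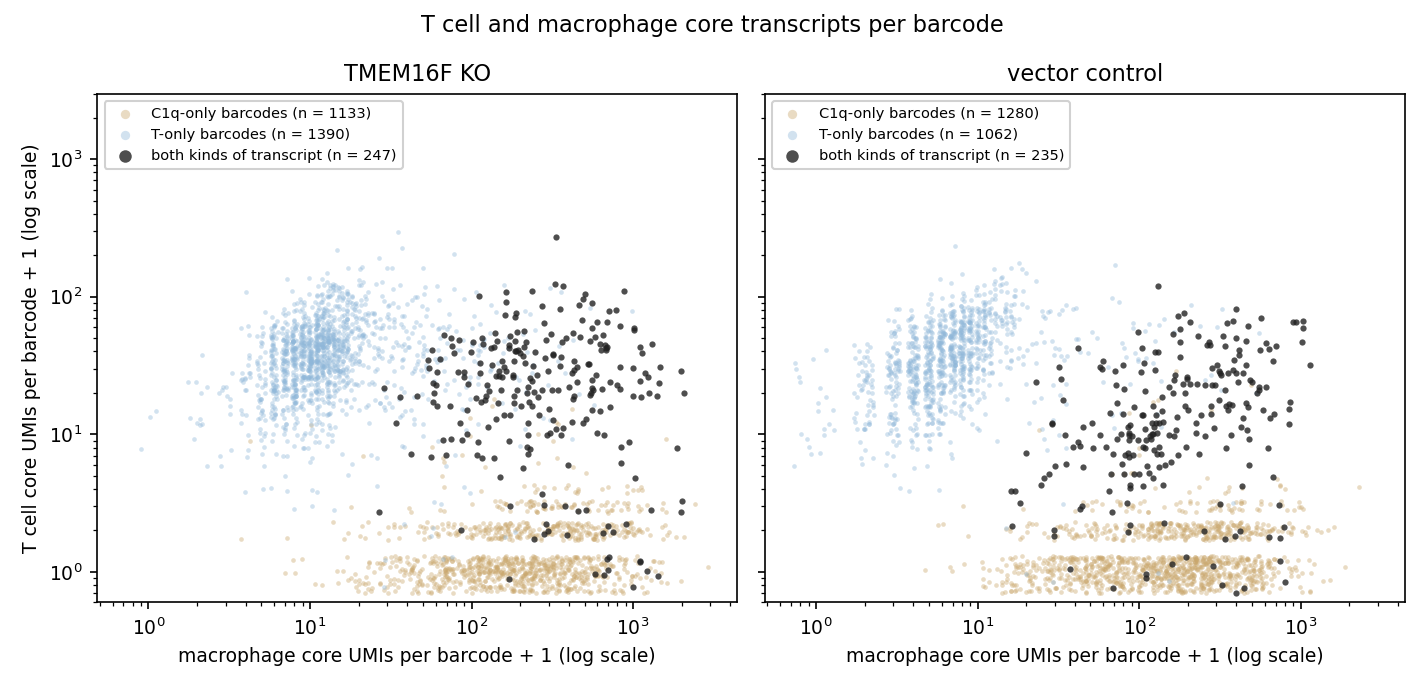
Each point is 1 barcode with its core macrophage UMIs (x axis) and pan-T UMIs (y axis), each plus 1 on log scales with a small jitter, in TMEM16F KO (left) and vector control (right) tumours. Double-positive barcodes (247 TMEM16F KO, 235 vector control) run from the level of T-only barcodes down to that of C1q-only barcodes, and 109 (TMEM16F KO) and 68 (vector control) reach the lower quartile of both sets.

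The spread of Cd3 UMIs differed between the libraries. With 15 or more stood 128 of 247 double-positive barcodes (51.8%, 45.4 to 58.2) in KO and 66 of 235 (28.1%, 22.4 to 34.3) in vector tumours, a ratio of 1.85 (1.36 to 2.52). As a share of all barcodes with at least 1000 UMIs these were 2.26% (KO) and 1.38% (vector), a ratio of 1.64 (1.21 to 2.24). Barcodes with 5 to 14 Cd3 UMIs were 71 (28.7%) in KO and 102 (43.4%) in vector tumours, and those with 3 to 4 were 48 (19.4%) in KO and 67 (28.5%) in vector tumours. T-only barcodes had a median of 24 Cd3 UMIs in each library.

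Double-positive barcodes of low depth were mostly in the vector library. The 57 vector barcodes under 5000 UMIs held 6.37 pan-T and 63.7 core macrophage UMIs each, 0.294 of the T-only and 1.02 times the C1q-only amount under the same limit. The 13 KO barcodes held 10.9 pan-T and 74.2 core macrophage UMIs each, 0.430 and 0.829 of these amounts in KO tumours. Mitochondrial genes, often raised in damaged cells, took a median of 0.215% (KO) and 0.353% (vector) of UMIs in this group, against 0.167% (KO) and 0.0918% (vector) in C1q-only barcodes under 5000 UMIs. At median depths of 3908 (KO) and 3199 (vector) UMIs such shares stand for few UMIs per barcode, so they gauge damage poorly. The part of damaged cells in the low-depth barcodes was not tested. The limit of 5000 UMIs did not make depth alike, as C1q-only barcodes under it had medians of 3096.5 (KO) and 2327 (vector) UMIs. Per 10000 UMIs the core macrophage genes gave 188 (KO) and 199 (vector) in double-positive barcodes under the limit. In C1q-only barcodes under it they gave 290 (KO) and 245 (vector).

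The T cell RNA was mostly of CD8 type where there was enough of it to read. CD8 is the co-receptor of cytotoxic T cells. At least 3 UMIs of Cd8a and Cd8b1 were found in 107 of 128 double-positive barcodes with 15 or more Cd3 UMIs (83.6%, 76.0 to 89.5) in KO and 52 of 66 (78.8%, 67.0 to 87.9) in vector tumours. T-only barcodes of the same range gave 81.3% (KO) and 78.3% (vector). Over all double-positive barcodes the share was 50.6% (KO) and 34.9% (vector), against 61.15% (KO) and 62.05% (vector) of all T-only barcodes. C1q-only barcodes gave 2 of 1133 in KO and 0 of 1280 in vector tumours, and the count of 0 allows a share of up to 0.234%. A UMI of Foxp3, the transcription factor of regulatory T cells, was found in 20 KO (8.10%) and 26 vector (11.1%) of all double-positive barcodes. It was found in 11.0% (KO) and 11.4% (vector) of T-only and 2 of 1133 (KO) and 3 of 1280 (vector) C1q-only barcodes. With 15 or more Cd3 UMIs it was found in 7.81% (KO) and 12.1% (vector) of double-positive barcodes. T-only barcodes of that range gave 9.61% (KO) and 7.815% (vector).

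Each T cell gene was then counted per 100 pan-T UMIs, which sets the macrophage RNA aside. Cd8a and Cd8b1 together gave 16.9 (KO) and 15.8 (vector) in double-positive and 17.4 (KO) and 19.2 (vector) in T-only barcodes. Ctla4, an inhibitory receptor, gave 7.65 (KO) and 7.26 (vector) in double-positive and 7.40 (KO) and 6.23 (vector) in T-only barcodes. Ifng, the cytokine that activates macrophages, gave 13.1 (KO) and 14.9 (vector) in double-positive and 14.8 (KO) and 17.9 (vector) in T-only barcodes. In KO tumours the ratio of double-positive over T-only was 0.971 (Cd8a and Cd8b1), 1.03 (Ctla4) and 0.888 (Ifng). In vector tumours the sets lay further apart, at 0.822 (Cd8a and Cd8b1), 1.17 (Ctla4) and 0.836 (Ifng).

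Among other T cell genes, Gzmf, Xcl1 and Tnfrsf4 lay further apart than these in at least 1 library. Gzmb, a protease of cytotoxic granules, gave 41.2 (KO) and 21.3 (vector) per 100 pan-T UMIs in double-positive and 34.7 (KO) and 27.0 (vector) in T-only barcodes. In KO tumours 1 barcode held 19.3% of its double-positive UMIs, and without that barcode the KO value was 34.6, level with T-only barcodes. Gzmf, a related granzyme, gave 31.8 (KO) and 7.29 (vector) in double-positive and 39.5 (KO) and 26.8 (vector) in T-only barcodes. In vector tumours its ratio of double-positive over T-only was 0.272 (0.242 to 0.304). Xcl1, a chemokine of activated CD8 T and NK cells, gave 6.92 (KO) and 31.5 (vector) in double-positive and 15.1 (KO) and 25.9 (vector) in T-only barcodes. In vector tumours 1 barcode held 31.5% of its double-positive UMIs, and without that barcode the vector value was 21.9, below that of T-only barcodes. Tnfrsf4, the costimulatory receptor OX40, gave 4.71 (KO) and 11.8 (vector) in double-positive and 7.29 (KO) and 7.25 (vector) in T-only barcodes. Tnfrsf4 per pan-T UMI was thus lower in double-positive than in T-only barcodes in KO tumours and higher in vector tumours, also without the barcode richest in it (4.36 in KO, 10.9 in vector). Leaving out such barcodes was added after seeing the data.

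Gzma, another granzyme, did not keep 1 ratio to the pan-T genes. It gave 4.28 (KO) and 5.38 (vector) UMIs per 100 pan-T UMIs in double-positive, 17.7 (KO) and 75.3 (vector) in C1q-only and 7.34 (KO) and 3.53 (vector) in T-only barcodes. In vector double-positive barcodes under 5000 UMIs it gave 20.9, from 76 Gzma UMIs in 8 of 57 barcodes. The vector C1q-only value came from 487 Gzma UMIs in 40 of 1280 barcodes, so in both sets few barcodes held the gene.

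NK cells also make Gzma, but counts pooled over the NK genes used here did not set NK cells apart from T cells. Barcodes chosen by 3 of them had median Cd3 counts of 26 (KO) and 31 (vector) UMIs, against 24 in T-only barcodes of each library. Of barcodes with at least 3 UMIs of Ncr1, Klrb1c and Klre1, 492 of 718 in KO (68.5%) and 407 of 529 in vector tumours (76.9%) also had at least 3 Cd3 UMIs. The 7 NK genes listed gave 1.26 (KO) and 0.694 (vector) UMIs per 10000 in double-positive, 0.131 (KO) and 0.139 (vector) in C1q-only and 3.42 (KO) and 3.39 (vector) in T-only barcodes. The part of NK cells in the T cell values was not tested.

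**Figure D4:**
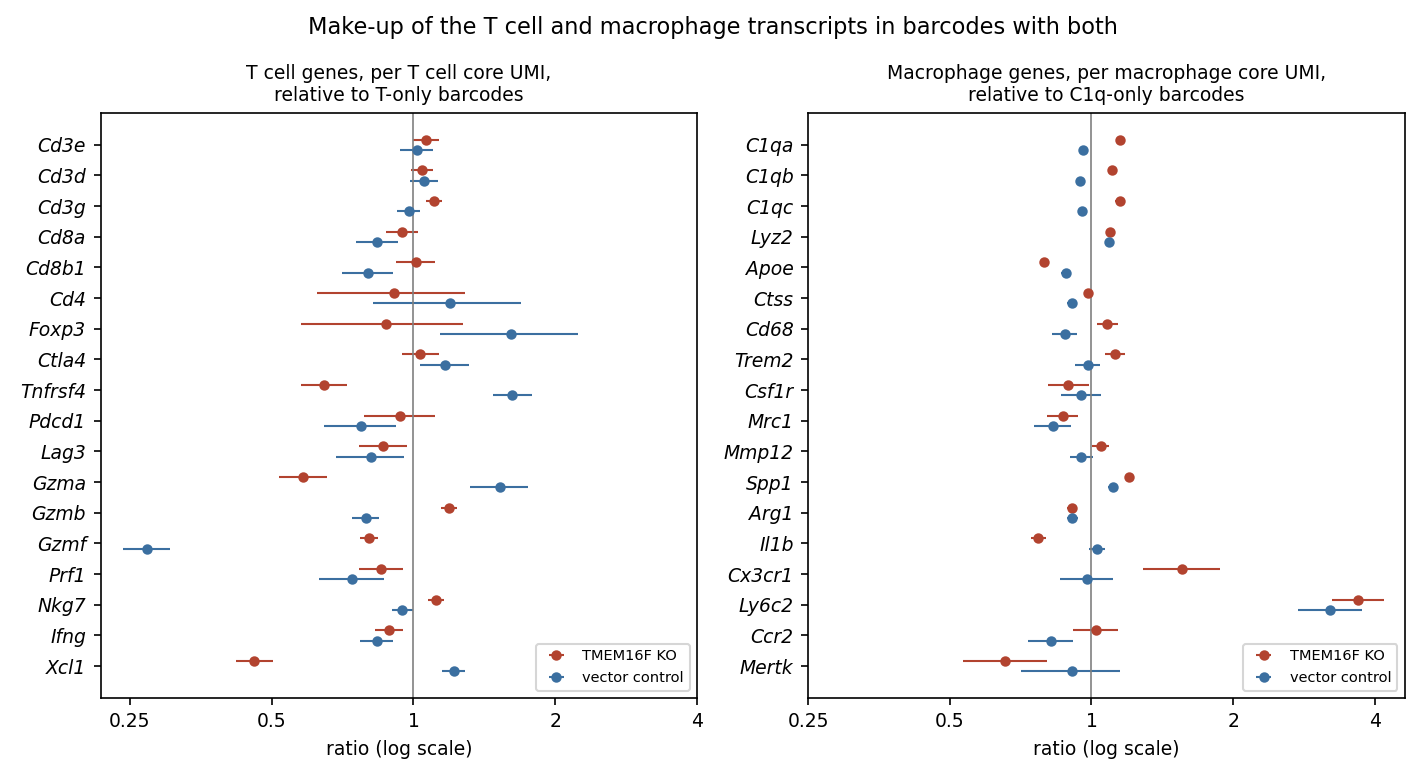
Ratio (log scale) of a gene's UMIs per pan-T UMI in double-positive over T-only barcodes (left) and per core macrophage UMI in double-positive over C1q-only barcodes (right), in TMEM16F KO (red, upper point) and vector control (blue, lower point) tumours, with 95% counting intervals. Tnfrsf4 lies at 0.646 (TMEM16F KO) and 1.62 (vector control), Xcl1 at 0.460 (TMEM16F KO) and 1.22 (vector control, 0.844 without 1 barcode), Gzmf at 0.805 (TMEM16F KO) and 0.272 (vector control), and Ly6c2 at 3.69 (TMEM16F KO) and 3.21 (vector control).

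Macrophage genes were counted per 1000 core macrophage UMIs. Spp1, the secreted matrix protein osteopontin, gave 257 (KO) and 143 (vector) in double-positive and 213 (KO) and 129 (vector) in C1q-only barcodes. Arg1, which breaks down arginine, gave 72.1 (KO) and 99.4 (vector) in double-positive and 79.4 (KO) and 109 (vector) in C1q-only barcodes. Mmp12, the macrophage elastase, gave 29.3 (KO) and 24.9 (vector) in double-positive and 28.0 (KO) and 26.2 (vector) in C1q-only barcodes. Spp1 and Arg1 differed more between the libraries than between the sets. Apoe, a lipid carrier, gave 153 (KO) and 145 (vector) in double-positive and 194 (KO) and 165 (vector) in C1q-only barcodes. Ly6c2, known from inflammatory monocytes and also made by CD8 T cells, gave 5.01 (KO) and 4.64 (vector) in double-positive and 1.36 (KO) and 1.44 (vector) in C1q-only barcodes. T-only barcodes were higher in Ly6c2 than double-positive ones, with 394 (KO) and 294 (vector) against 125 (KO) and 83.0 (vector) counts per 1000000 UMIs (CPM).

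Genes for the uptake of dead cells lay on either side of the C1q-only level, depending on the scale. The 20 listed gave 10.7 (KO) and 11.1 (vector) UMIs per 10000 in double-positive, 12.3 (KO) and 12.3 (vector) in C1q-only and 9.14 (KO) and 8.25 (vector) in T-only barcodes. Per 1000 core macrophage UMIs they gave 42.9 (KO) and 61.9 (vector) in double-positive and 38.0 (KO) and 53.7 (vector) in C1q-only barcodes, and T-only barcodes express them too. Per barcode they gave 18.1 (KO) and 15.6 (vector) UMIs in double-positive and 12.0 (KO) and 12.2 (vector) in C1q-only barcodes. Mertk, a receptor for bound phosphatidylserine, gave 1.10 (KO) and 1.40 (vector) UMIs per 1000 core macrophage UMIs in double-positive and 1.67 (KO) and 1.54 (vector) in C1q-only barcodes. Axl, of the same receptor family, gave 1.77 (KO) and 4.45 (vector) in double-positive and 2.05 (KO) and 4.76 (vector) in C1q-only barcodes. Per 10000 UMIs, a scale on which T cell RNA counts in the total, the lysosomal genes listed (15 of 16 were found) gave 93.9 (KO) and 66.6 (vector) UMIs per 10000 in double-positive and 113 (KO) and 86.8 (vector) in C1q-only barcodes. The MHC class II genes, which present antigen, gave 194 (KO) and 189 (vector) in double-positive and 258.5 (KO) and 255.5 (vector) in C1q-only barcodes. Per core macrophage UMI the lysosomal genes stood at 1.08 (KO) and 0.979 (vector) times the C1q-only level. On that scale the MHC class II genes stood at 0.976 (KO) and 0.945 (vector) times it.

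Across all genes the double-positive barcodes mostly lay between the sets. Compared were the 8389 genes with at least 50 UMIs over the double-positive barcodes of both libraries. A level between those of C1q-only and T-only barcodes was found for 5803 genes (69.2%) in KO and 5912 (70.5%) in vector tumours. At least 1.5-fold above both sets stood 17 genes in KO (0.203%) and 8 in vector tumours (0.0954%), and 0 genes (0%) did so in both. Nearest came Rnf103, a ubiquitin ligase, at 1.34 (KO) and 1.32 (vector) times the higher set, and Col3a1, a fibroblast collagen, at 1.27 (KO) and 2.55 (vector) times. Of the Col3a1 UMIs, 1 barcode held 64.0% in KO and 1 barcode 76.9% in vector tumours. Both genes were named after their values were seen.

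A weighted sum of the C1q-only and T-only profiles was also fitted to the double-positive profile of each library. The T-only weight came to 27.1% in KO and 24.8% in vector tumours. Within 1.5-fold of that sum lay 8135 genes (97.0%) in KO and 8178 (97.5%) in vector tumours. Above it were 106 (1.26%) in KO and 93 (1.11%) in vector tumours, with 16 (0.191%) above in both. Below it were 148 (1.76%) in KO and 118 (1.41%) in vector tumours, with 8 (0.0954%) below in both. All 16 pan-T and all 15 core macrophage genes lay within 1.5-fold in both libraries. So did 14 of 14 dead-cell uptake genes with enough UMIs in KO and 13 of 14 in vector tumours. These counts are near the all-gene shares of 97.0% (KO) and 97.5% (vector), so they set no list apart. The sum was fitted to the same profiles, so closeness to it is partly built in.

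Of the 16 genes above the sum in both libraries, some came from single barcodes. They included Col3a1, Col6a1, Dcn, Sparc and Ccn1, known from stromal cells, and for each of these 1 barcode held at least 36.8% of the UMIs in each library. The proliferation genes Pbk, Esco2 and Pkmyt1 were above it in both as well, read in 19 to 28 KO and 33 to 38 vector barcodes. Of the 20 proliferation genes listed, 3 were above the sum and 0 below in KO tumours, with a median of 1.30, and 0 above and 1 below in vector tumours, with a median of 1.13. The mitochondrial genes mt-Nd1, at 1.66 (KO) and 1.89 (vector) times the sum, and mt-Cytb, at 1.53 (KO) and 1.55 (vector), were spread over barcodes, none of which held over 9.23% of the UMIs. All mitochondrial genes together took a median of 0.111% (KO) and 0.118% (vector) of UMIs in double-positive, 0.0705% (KO) and 0.0603% (vector) in C1q-only and 0.0693% (KO) and 0.0506% (vector) in T-only barcodes, and the part of damaged cells was not tested. Among the 8 below in both were Fabp4, a fatty acid carrier, at 0.623 (KO) and 0.420 (vector), and Gpnmb, a glycoprotein of lipid-laden macrophages, at 0.607 (KO) and 0.631 (vector). All of these were named after their values were seen.

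Other cell types were scarce. The 7 stromal genes gave 0.982 (KO) and 1.00 (vector) UMIs per 10000 in double-positive, 0.249 (KO) and 0.283 (vector) in C1q-only and 1.03 (KO) and 1.58 (vector) in T-only barcodes. Of these UMIs 1 barcode held 259 of 409 in KO and 1 barcode 217 of 333 in vector tumours. In double-positive barcodes the B cell genes gave 0.197 (KO) and 0.290 (vector), the neutrophil genes 0.403 (KO) and 0.205 (vector) and the dendritic cell genes 0.281 (KO) and 0.568 (vector). The 3 red blood cell genes were at 0 in both libraries, where a count of 0 allows up to 3 UMIs.

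Barcodes chosen by other markers overlapped too, though most NK-marker barcodes also had at least 3 Cd3 UMIs. Among barcodes with at least 3 UMIs of marker genes, those also C1q-high were 60 of 718 (8.36%, KO) and 39 of 529 (7.37%, vector) for NK markers, 11 of 42 (KO) and 5 of 20 (vector) for neutrophil markers and 9 of 53 (KO) and 10 of 100 (vector) for stromal markers. They were 6 of 72 (KO) and 5 of 42 (vector) for dendritic markers and 3 of 18 (KO) and 5 of 21 (vector) for B cell markers. Cell types that should lack CD3 also had it. At least 3 Cd3 UMIs were found in 4 of 42 (9.52%, KO) and 1 of 20 (5.00%, vector) neutrophil-marker barcodes, with medians of 4891.5 (KO) and 7839 (vector) UMIs. They were found in 14 of 53 (26.4%, KO) and 28 of 100 (28.0%, vector) stromal-marker barcodes, with medians of 16765 (KO) and 25961.5 (vector) UMIs. The 13.1% (KO) and 11.4% (vector) of C1q-high barcodes, with medians of 10428.5 (KO) and 10344 (vector) UMIs, lie above the neutrophil-marker and below the stromal-marker shares, at depths that differ. At 15 or more Cd3 UMIs were 6.79% (KO) and 3.21% (vector) of C1q-high barcodes, 2 of 42 (4.76%, KO) and 1 of 20 (5.00%, vector) neutrophil-marker and 10 of 53 (18.9%, KO) and 18 of 100 (18.0%, vector) stromal-marker barcodes. Of dendritic-marker barcodes 11 of 72 (KO) and 2 of 42 (vector) had as many, and of B cell-marker barcodes 2 of 18 (KO) and 0 of 21 (vector, which allows up to 14.3%). The part of free RNA was not tested.

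Doublet scores were high in many of these barcodes. Scrublet, which compares each barcode with pairs of barcodes added together, marked 0 of 5993 KO and 0 of 5253 vector barcodes at its automatic threshold and so did not work, and no barcode was removed. Among the 287 KO and 221 vector barcodes of highest score (0.8% per 1000 barcodes of a library), 97 (KO) and 64 (vector) were double-positive. That was 39.3% (KO) and 27.2% (vector) of double-positive barcodes, against 0.706% (KO) and 1.33% (vector) of C1q-only and 6.04% (KO) and 4.52% (vector) of T-only barcodes. It was 53.1% (KO) and 48.5% (vector) with 15 or more Cd3 UMIs and 18.8% (KO) and 10.4% (vector) with 3 to 4. The scores were made without leaving out the 6 genes that chose the barcodes. A barcode chosen for both kinds of transcript resembles an added pair, so part of these contrasts follows from the rule. They therefore cannot show how many of these barcodes are doublets.

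Gene levels in double-positive barcodes were then set between the genotypes, on CPM of summed UMIs. At least 1.5-fold higher in KO tumours were 402 of 8389 genes (4.79%), and at least 1.5-fold lower were 402 (4.79%). The counts by list below stand against these shares, and 1 gene called in a short list is no result about that list. With mitochondrial, ribosomal protein and haemoglobin genes left out of the total, the split was 316 higher and 517 lower. The share of Cd3-rich barcodes and the depth differed at the same time, as given above, and their part in these counts was not tested. The ratio in C1q-only or T-only barcodes therefore stands beside the main genes.

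Several cytotoxic genes stood higher in KO double-positive barcodes. Of 10 listed, 5 were at least 1.5-fold higher and 1 lower, with a median log2 ratio of 0.57 against 0.00 over all genes. As a mean over barcodes, which weights each alike, 3 were higher and 2 lower, with a median of 0.28. Gzmb gave 716 CPM in KO and 276 CPM in vector barcodes, a ratio of 2.59 (2.40 to 2.79), with 0.916 in C1q-only and 1.47 in T-only barcodes. Gzmf, which is not on the list, gave 551 CPM in KO and 94.5 CPM in vector barcodes, a ratio of 5.83 (5.18 to 6.58), with 0.528 in C1q-only and 1.68 in T-only barcodes. It was read in 74 KO and 34 vector barcodes, and since granzymes of its cluster are close in sequence the split of reads among them is uncertain. Nkg7, a granule protein of cytotoxic cells, gave 774 CPM in KO and 490 CPM in vector barcodes, a ratio of 1.58 (1.49 to 1.68), with 1.15 in T-only barcodes. The granzyme Gzmk had a ratio of 2.66, with 1.46 in T-only barcodes, and Prf1, the pore-forming perforin, 1.72 with 1.28. Without 1 KO barcode, which held 15.5% of the Prf1 UMIs, its ratio was 1.48. Ccl5, a chemokine of effector T cells and also of macrophages, had a ratio of 2.03, with 2.02 in C1q-only and 1.46 in T-only barcodes.

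The listed gene that stood lower was Xcl1, with 120 CPM in KO and 409 CPM in vector barcodes, a ratio of 0.294 (0.265 to 0.326). Its ratio was 1.30 in C1q-only and 0.664 in T-only barcodes, and 1 vector barcode held 31.5% of its UMIs. Ccl1, a chemokine of activated T cells, gave 11.5 CPM in KO and 83.9 CPM in vector barcodes, a ratio of 0.137 (0.0989 to 0.187), with 0.463 in C1q-only and 0.548 in T-only barcodes. Of its UMIs 1 barcode held 37.5% in KO and 1 barcode 40.6% in vector tumours.

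The pan-T genes had a median log2 ratio of 0.34, with 2 of 16 at least 1.5-fold higher, Cd28 (1.64), a costimulatory receptor, and Thy1 (1.68), a surface protein of T cells, and 0 lower. Of 5 regulatory T cell genes 2 were lower, Foxp3 (0.555) and Tnfrsf4 (0.536), with 0.877 (Foxp3) and 1.15 (Tnfrsf4) in T-only barcodes. Of 7 exhaustion genes 1 was higher, the inhibitory receptor Lag3 (1.62), with 1.30 in T-only barcodes. Among naive and memory genes the interleukin receptor Il7r was higher (1.67, with 2.28 in C1q-only and 1.79 in T-only barcodes) and Ccr7 was lower.

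Csf1, the macrophage growth factor, gave 44.0 CPM in KO and 14.8 CPM in vector barcodes, a ratio of 2.97 (2.16 to 4.16), with 1.03 in C1q-only and 1.10 in T-only barcodes. It was read in 86 KO and 40 vector barcodes, and no barcode held over 6.12% of its UMIs. Klra5 and Klra7, Ly49 receptors known from NK cells and close in sequence to each other's family, had ratios of 4.21 (Klra5) and 3.83 (Klra7), with 1.05 (Klra5) and 1.45 (Klra7) in T-only barcodes. Of the Klra7 UMIs 1 barcode held 36.6% in KO and 1 barcode 52.4% in vector tumours, and its ratio was 1.25 with at least 80 C1q UMIs per 10000. Of 14 contact genes 2 were higher, Cd274 (1.66), the checkpoint ligand PD-L1, with 1.84 in C1q-only barcodes, and Cxcr6 (1.88), a chemokine receptor of tissue T cells, with 1.06 in T-only barcodes.

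For several macrophage genes the ratio lay near that of C1q-only barcodes. Spp1 gave 6416 CPM in KO and 2557 CPM in vector double-positive barcodes, a ratio of 2.51 (2.45 to 2.57), with 2.36 in C1q-only barcodes. Ctsl, a lysosomal protease, gave 1458 CPM in KO and 628 CPM in vector barcodes, a ratio of 2.32 (2.21 to 2.44), with 1.93 in C1q-only barcodes. Inhba, a subunit of activin, had a ratio of 3.20 with 3.59 in C1q-only barcodes, and Npy, a neuropeptide, 4.65 with 3.39. Cx3cr1, the fractalkine receptor, was lower in both sets but lay further from its C1q-only ratio. It gave 39.6 CPM in KO and 84.2 CPM in vector barcodes, a ratio of 0.471 with 0.301 in C1q-only barcodes. Axl gave 44.2 CPM in KO and 79.7 CPM in vector barcodes, a ratio of 0.555 with 0.612 in C1q-only barcodes. Ptgs1, the cyclooxygenase COX-1, had a ratio of 0.284 with 0.292 in C1q-only barcodes.

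By list, 6 of 13 macrophage state genes were at least 1.5-fold higher in KO barcodes and 1 lower, and 4 of 15 lysosomal genes were higher and 0 lower. Without the KO barcode richest in each, the ratio was under 1.5 for Mmp13 (1.31), Ly6c2 (1.455), Ctsb (1.485) and Ctsd (1.44). With at least 5 Cd3 UMIs as the limit, 4 of 12 macrophage state genes were higher and 1 lower. At that limit 2 of 15 lysosomal genes were higher and 0 lower. Of the 15 core macrophage genes 2 were higher, Ctss (1.54), a protease, and Pltp (1.74), a lipid transfer protein, and 0 lower. Of 14 dead-cell uptake genes 1 was higher, the scavenger receptor Scarf1 (1.87), and 1 lower, Axl, against 4.79% of all genes each way. Without 1 KO barcode the Scarf1 ratio was 1.79 (0.986 to 3.38). Of 7 MHC class II genes 0 were higher and 0 lower. Mmp12 had a ratio of 1.64 over all double-positive barcodes and 0.995 in those with 15 or more Cd3 UMIs, and without 1 KO barcode it was 1.48.

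Ifnb1, which encodes interferon beta, gave 4.08 CPM in KO and 42.0 CPM in vector double-positive barcodes, a ratio of 0.0973 (0.0551 to 0.162). It was read in 11 KO and 37 vector barcodes. In C1q-only barcodes it gave 24.8 CPM in KO and 58.0 CPM in vector tumours, a ratio of 0.427. Of 11 interferon-gamma response genes 1 was higher, Socs1 (1.63), an inhibitor of cytokine signalling, and 0 lower. Cxcl3, a neutrophil-attracting chemokine, gave 58.4 CPM in KO and 11.8 CPM in vector barcodes, a ratio of 4.96, with 1.67 in C1q-only and 9.57 in T-only barcodes. Of its UMIs 1 barcode held 23.5% in KO and 1 barcode 30.8% in vector tumours, and with at least 2 Cd3 UMIs as the limit the ratio was 1.22.

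Proliferation genes stood lower in KO double-positive barcodes. Of 20 listed, 13 were at least 1.5-fold lower and 0 higher, with a median log2 ratio of -0.70. Together they gave 11.3 (KO) and 17.4 (vector) UMIs per 10000 in double-positive, 5.98 (KO) and 12.4 (vector) in C1q-only and 15.7 (KO) and 23.5 (vector) in T-only barcodes. Mki67, a marker of cycling cells, gave 28.8 CPM in KO and 52.5 CPM in vector barcodes, a ratio of 0.549 (0.431 to 0.696), with 0.390 in C1q-only and 0.766 in T-only barcodes. Top2a, a topoisomerase of dividing cells, gave 52.1 CPM in KO and 90.0 CPM in vector barcodes, a ratio of 0.579, with 0.373 in C1q-only and 0.649 in T-only barcodes. The histone genes H2ac8 (0.334), H2ac22 (0.341) and H2ac24 (0.347), near copies whose reads may be split, were lower as well. Of 10 stress genes 2 were lower, Hspa1a (0.409) and Hspa1b (0.424), near copies that encode heat shock proteins.

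Some large ratios rested on single barcodes. Acta2 and Tagln, genes of smooth muscle and stromal cells, had ratios of 26.2 (Acta2) and 20.7 (Tagln), and 1 KO barcode held 90.9% (Acta2) and 96.2% (Tagln) of the UMIs in KO tumours. For Igfbp7, an insulin-like growth factor binding protein, 1 barcode held 81.7% of the KO UMIs. For Penk, which encodes an opioid precursor, 1 barcode held 77.4% of the vector UMIs.

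**Figure D5:**
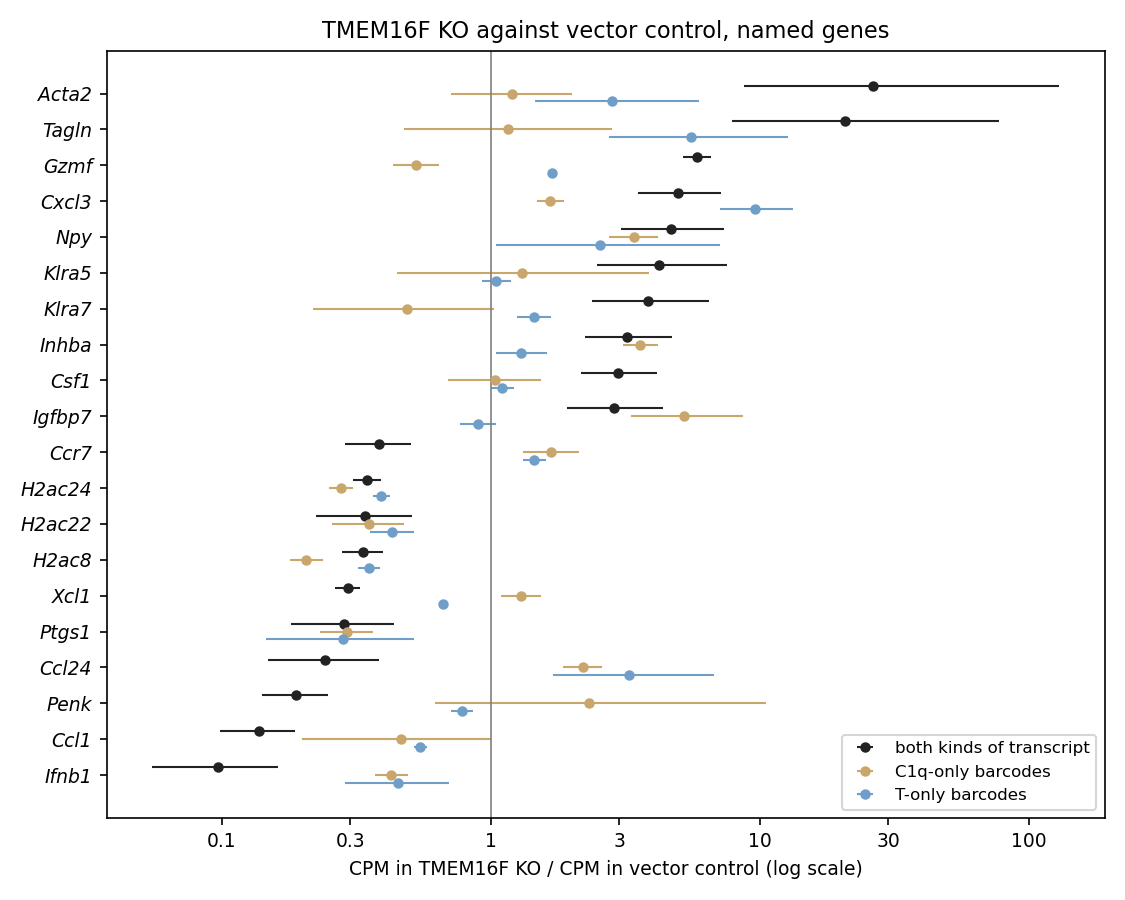
Ratio (log scale) of CPM in TMEM16F KO over vector control tumours for the genes named by rule, in double-positive (black), C1q-only (tan) and T-only (blue) barcodes, with 95% counting intervals. Inhba (3.20 and 3.59) and Ptgs1 (0.284 and 0.292) lie close to their C1q-only points, Csf1 (2.97) lies above both other sets, and Ccl24 (0.243) and Ccr7 (0.383) lie on the other side of 1 from both.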

How the data were processed

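The deposited matrices hold raw UMI counts of 34290 genes per barcode, and per the file headers Cell Ranger 8.0.0 made them. The submitters' processing notes name build mm10 and Seurat 3.1.1; annotation and use of Seurat are not stated in the labels. Barcodes with at least 1000 UMIs were classed by raw counts, with no clustering, correction for free RNA or removal of doublets. The double-positive barcodes, gene lists and limits were chosen with earlier results of these data known.

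Counts were summed per class and library and given as CPM. Shares have exact Clopper-Pearson, list levels exact Poisson, ratios exact conditional binomial and medians order-statistic intervals; UMIs of a gene cluster in few barcodes, so these can be too narrow. The fitted sum came from non-negative least squares. Both it and the ratios were run on simulated data. Those counts were independent, without clustering in few barcodes, and the simulated sum was an exact mixture. The run therefore does not show that the intervals or the fit hold for these data. Besides listed genes, the text names the 10 highest and 10 lowest ratios among genes with at least 100 UMIs and an interval past 1, without mitochondrial, ribosomal protein, haemoglobin, immunoglobulin, T cell receptor variable and predicted genes. A further 15 genes above both sets were to be named, but 0 qualified. Python 3.11.15, numpy 2.4.6, scipy 1.17.1, pandas 2.3.3, scanpy 1.11.5 (Scrublet) and matplotlib 3.10.9 were used. Coordinates are those of GENCODE on GRCm38, the same assembly as mm10. Alternatives were other C1q, Cd3 and UMI limits, removal of high doublet scores, a filter (under 20% mitochondrial UMIs, at least 200 genes), other totals, another gene minimum and a mean over barcodes. The result of 1 listed gene is not reported here.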

Additional observations from a re-analysis of the deposited data

Results flagged for a closer look

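Ccl24, a chemokine for eosinophils made by macrophages, had a ratio of 0.243 (0.149 to 0.384) of TMEM16F KO over vector control in double-positive barcodes, from 25 KO and 82 vector UMIs, against 2.20 in C1q-only and 3.25 in T-only barcodes. It was read in 15 KO and 14 vector barcodes, and 1 vector barcode held 54.9% of its UMIs there. Ccr7, the lymph node homing receptor of naive T cells and mature dendritic cells, had a ratio of 0.383 (0.287 to 0.506), from 76 UMIs in 23 KO and 158 UMIs in 42 vector barcodes, against 1.67 in C1q-only and 1.45 in T-only barcodes. No barcode held over 21.1% of its UMIs in a library. The 7 dendritic cell genes, a list that holds Ccr7 itself, gave 0.281 UMIs per 10000 in KO and 0.568 in vector double-positive barcodes, and their part was not tested. Both genes are given because the counting interval of their ratio in double-positive barcodes lies on the other side of 1 from those in both other sets. The difference between the sets was not tested.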

How the results depend on the processing

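No paired analysis was possible because there is 1 library per genotype and no test. Values below are the share ratio of KO over vector, the depth ratio to C1q-only barcodes, the pan-T amount over T-only barcodes and counts of genes. With at least 20 C1q UMIs per 10000 the KO depth ratio was 1.49 and the vector pan-T amount 0.497. With at least 80 the depth ratios were 2.20 (KO) and 1.77 (vector) and the KO pan-T amount 0.671. The pan-T amount was 0.521 (KO) and 0.320 (vector) with at least 2 Cd3 UMIs, 0.838 (KO) and 0.581 (vector) with at least 5, 0.678 (KO) with at least 2000 UMIs, and 0.550 (KO) and 0.338 (vector) without the highest doublet scores. Genes above both sets in both libraries were 2 with at least 5 Cd3 UMIs (Col3a1, Tagln), 5 without the highest doublet scores (Col3a1, Ckap2l, Maged1, Col6a1, Tagln) and 8 with a minimum of 10 UMIs per gene, in place of 0. That gene minimum gave 1064 higher and 1166 lower genes, and a mean over barcodes 677 higher and 480 lower. Restricted to at least 5000 UMIs, chosen after seeing the data, the share ratio was 1.11, the pan-T amount 0.723 (KO) and 0.544 (vector) and the vector depth ratio 1.81. Restricted to 15 or more Cd3 UMIs, also chosen after seeing the data, the share ratio was 1.64, the depth ratios 2.06 (KO) and 2.18 (vector), the pan-T amount 1.09 (KO) and 0.946 (vector), genes above both sets 1 (Slurp1), and macrophage state genes 3 higher and 2 lower. The other 69 values of 97 stayed within the interval of the reported value or within 1.5-fold. The mitochondrial and gene filter left all 247 KO and 235 vector double-positive barcodes in place, so its values could hardly move. The share ratio, whose own interval holds 1, was above 1 in both sets chosen after seeing the data and with at least 80 C1q UMIs (1.03). The cause of the moves was not tested. The KO over vector ratio of 15 or more Cd3 UMIs among double-positive barcodes stayed between 1.46 and 2.01. The share ratio was 0.745 (0.594 to 0.933) without the highest doublet scores and 0.834 (0.716 to 0.971) with at least 2 Cd3 UMIs, where its interval lay below 1. Among single genes, the KO over vector ratios of Igfbp7 (0.540 to 5.19), Penk (0.0689 to 1.66), Gzma (0.463 to 3.69) and Mmp12 (0.995 to 2.92) fell on both sides of 1.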
